A study of Mus musculus with 9 samples.

Results

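The genes described here are the 10 mitochondrial fusion, fission and quality genes *Mfn1*, *Mfn2*, *Opa1*, *Oma1*, *Dnm1l*, *Fis1*, *Mff*, *Mief1*, *Mief2* and *Pink1*, out of 48820 genes in the RNA-seq table of the perinatal mouse heart. They were chosen by their symbol, and each was found once in the table. Total RNA of 9 hearts was sequenced, with 3 biological replicates each at embryonic day 18.5 (E18.5d), postnatal day 1 (P1d) and postnatal day 7 (P7d). All hearts were wild type (WT), of the C57BL/6J strain, untreated and labelled male. The values are FPKM, the fragments per kilobase of transcript and per 1e6 mapped fragments, so that levels can be compared between genes of different length. Between hearts they depend also on how each column is scaled.

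Mitochondria fuse and divide continuously. MFN1 and MFN2 are GTPases that join the outer membranes of neighbouring mitochondria, and OPA1 is the GTPase that joins the inner membranes and shapes the cristae. OMA1 is a stress-activated protease that cleaves OPA1 and so limits fusion. DRP1, the product of *Dnm1l*, is a cytosolic GTPase that constricts the organelle, and it is held at the outer membrane by MFF, by the adaptors MIEF1 and MIEF2 and, in some settings, by FIS1. PINK1 is a kinase that accumulates on damaged mitochondria and starts their removal by mitophagy. Around birth the mitochondria of cardiomyocytes enlarge and gather along the myofibrils.

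Depth was fitted so that low FPKM values of short genes with 1 transcript fell near whole numbers of fragments. The fit gave 25.5 to 45.5 times 1e6 fragments per heart, at which 88.1% to 91.1% of these values were whole within 0.1 fragments. As the depth was chosen to make this share high, the share is no separate test of it. At these depths the fewest fragments of any of the 10 genes were about 327, for *Mief2* in E18.5d replicate 1, a counting error of 5.53%. Against the label, 4 hearts had *Xist*, the RNA that silences an X chromosome in female cells, at 58.0 to 97.0 FPKM with 4 Y-linked genes at 0. These were 2 of the E18.5d hearts (replicates 1 and 3) and 2 of the P7d hearts (replicates 2 and 3), and the other 5 hearts had *Xist* at 0.02 to 0.11 FPKM. Values without these 4 hearts are given below. All 6 cardiomyocyte markers (*Tnnt2*, *Myh6*, *Actn2*, *Tnni3*, *Ryr2* and *Pln*) were present. Their summed FPKM was 11243 to 11428 at E18.5d, 15825 to 16834 at P1d and 16105 to 16668 at P7d, and 5 of the 6 were called higher at each postnatal stage than at E18.5d. The sixth, *Tnnt2*, was called lower at P7d than at E18.5d (4431 to 3056 FPKM, log2 change -0.54, limma adjusted p = 0.000771). The sum of 5 fibroblast markers was 1173 to 1239, 1044 to 1410 and 1840 to 1860 FPKM, in that order of stages. From E18.5d to P7d *Col3a1* and *Dcn* were called up. *Col1a1*, *Pdgfra* (27.8 to 27.5 FPKM) and *Tcf21* (26.3 to 24.1 FPKM) were not called, and from E18.5d to P1d 2 of the 5 were called down. The sum of 5 endothelial markers was 305 to 334, 343 to 382 and 401.4 to 419 FPKM, and from E18.5d to P7d 4 of them were called up and 1 down. The sum of 4 epicardial markers was 46.7 to 56.4, 43.7 to 58.1 and 24.9 to 29.1 FPKM, and 3 of them were called down from E18.5d to P7d. The sum of 6 erythroid markers was 8419 to 22746, 12734 to 24730 and 8551 to 10410 FPKM. The sum of 5 brown fat markers was 37.2 to 38.4, 69.1 to 76.7 and 60.2 to 67.5 FPKM, with *Ucp1* and *Elovl3* at 0 in every E18.5d heart and *Elovl3* at 0 in every P7d heart. The sum of 4 lung epithelium markers reached 137 FPKM in E18.5d replicate 2 and 221 FPKM in P1d replicate 1, and stayed at or under 0.23 FPKM at P7d. Nearly all of it in these hearts was *Scgb3a2* (127 and 179 FPKM) and *Scgb1a1* (8.69 and 42.1 FPKM). *Sftpc* and *Sftpb* stayed at or under 0.63 FPKM in every heart. Mitochondrially encoded genes took 2.78% to 3.68% of the summed FPKM at E18.5d, 3.28% to 5.25% at P1d and 5.79% to 6.02% at P7d. In RNA of the heart as a tissue, fewer cells of a type and less RNA per cell cannot be told apart, and the part of these differences in the results below was not tested.

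Between stages, log2(FPKM + 1) values were compared with limma, which fitted all 9 hearts together over 13618 genes. A gene is called higher or lower when its Benjamini-Hochberg adjusted p over all these genes was under 0.05. At low FPKM, the added 1 makes a log2 change smaller than the change in level. The stages differed in many genes, so a call alone does not set a gene apart. Between P1d and E18.5d, 46.0% of all genes tested were called, 18.4% higher and 27.6% lower. Between P7d and E18.5d, 49.4% were called, 12.5% higher and 36.9% lower, and between P7d and P1d 44.2% were called, 15.5% higher and 28.6% lower. Of the 10 genes, 5 were called in each comparison, a share near these backgrounds. At P1d against E18.5d, 4 were higher (*Pink1*, *Fis1*, *Mff* and *Mfn2*) and 1 was lower (*Dnm1l*). At P7d against E18.5d, 3 were higher (*Pink1*, *Mfn2* and *Mief2*) and 2 were lower (*Dnm1l* and *Mief1*), while at P7d against P1d 1 was higher (*Mfn2*) and 4 were lower (*Fis1*, *Pink1*, *Mff* and *Mief1*). The median log2 change of the 10 genes was 0.15, 0.04 and -0.03 in these 3 comparisons, beside -0.06, -0.17 and -0.09 for all genes tested. *Mfn1*, *Opa1* and *Oma1* were called in none of the 3 comparisons.

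**Figure D1:**
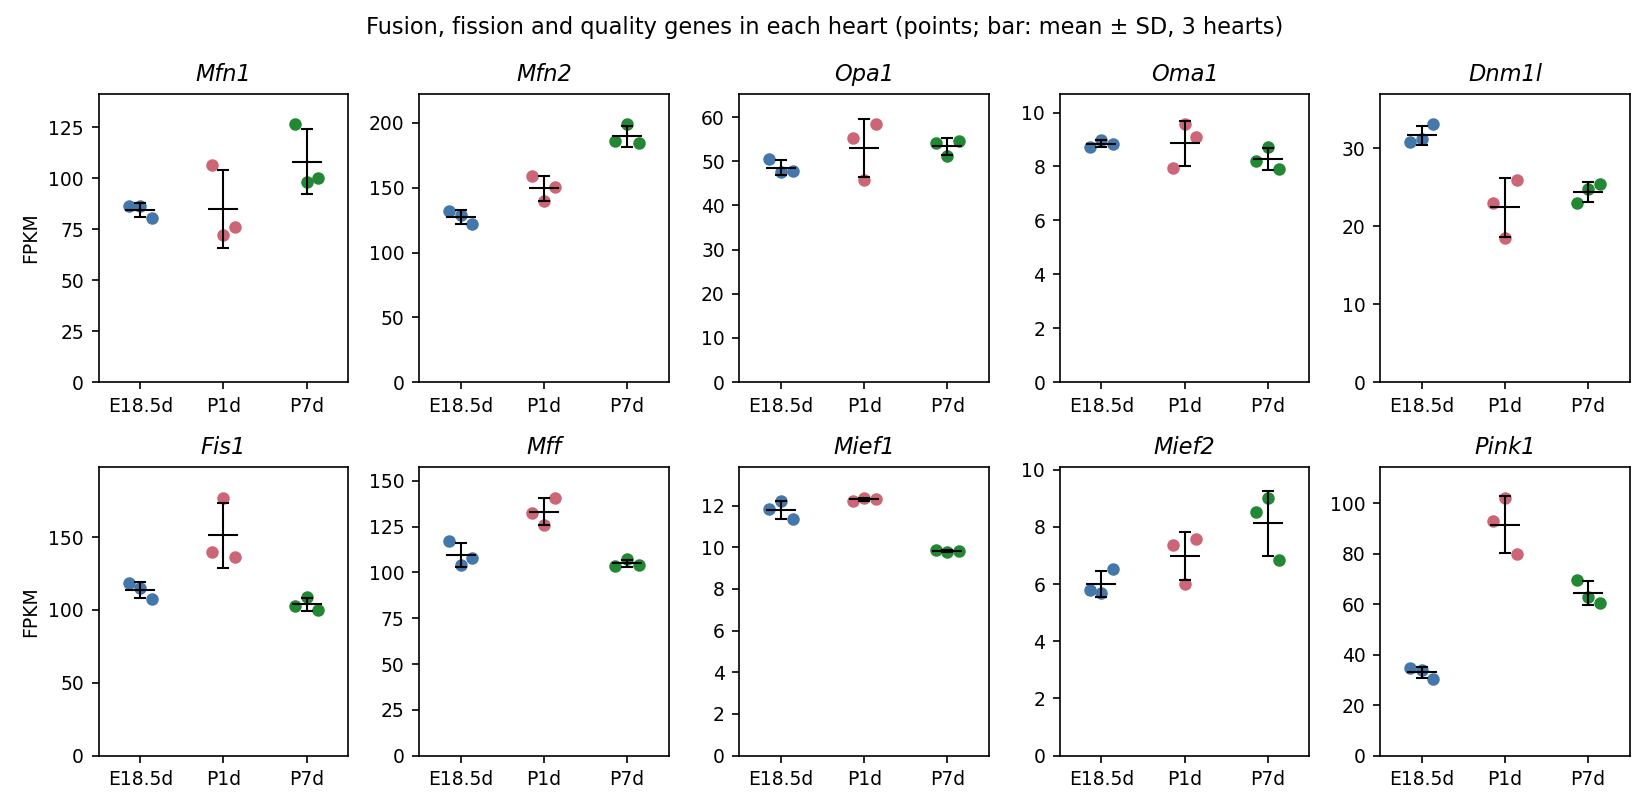
FPKM of the 10 genes (y axis, linear and starting at 0, a scale for each gene) in each heart (points) at E18.5d, P1d and P7d (x axis), with the mean and SD of 3 hearts as bars. *Pink1*, *Fis1* and *Mff* were higher in all P1d hearts than in the other 6, *Mfn2* rose at each stage from 128 to 190 FPKM, and *Dnm1l* was highest in the 3 E18.5d hearts.

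*Pink1* (ENSMUSG00000028756.12, chr4:138313409-138326307 of GRCm38, minus strand) changed most. Its level was 34.8, 33.9 and 30.5 FPKM in the 3 E18.5d hearts, 92.9, 102 and 79.7 FPKM in the P1d hearts and 69.8, 63.0 and 60.7 FPKM in the P7d hearts. The stages did not overlap, with every P1d heart above every P7d heart and every P7d heart above every E18.5d heart. The means were 33.1 ± 2.23, 91.5 ± 11.2 and 64.5 ± 4.72 FPKM (SD, n = 3 each), a 2.77-fold higher level at P1d and a 1.95-fold higher level at P7d than at E18.5d. On the log2 scale the change from E18.5d to P1d was 1.44 ± 0.10 (SE; limma adjusted p = 6.15e-06), which was number 98 in order of change among the 13618 genes. At P7d *Pink1* stayed above E18.5d by 0.94 ± 0.10 (limma adjusted p = 6.08e-05) and was lower than at P1d (log2 change -0.49 ± 0.10, limma adjusted p = 0.00284). The rise at P1d was called in all 20 alternative fits.

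The fission receptors *Fis1* and *Mff* had a maximum at P1d as well, of smaller size. *Fis1* (ENSMUSG00000019054.13, chr5:136953275-136966234, plus strand) had 118, 115 and 107 FPKM at E18.5d, 140, 177 and 137 FPKM at P1d and 103, 109 and 100 FPKM at P7d. All P1d hearts stood above the other 6, P1d replicate 2 farthest, and the E18.5d and P7d hearts overlapped. Its mean rose from 114 ± 5.67 to 151 ± 22.4 FPKM (SD, n = 3) at P1d, by 0.40 ± 0.10 on the log2 scale (SE; limma adjusted p = 0.00731). It then fell to 104 ± 4.35 FPKM at P7d, a log2 change of -0.53 ± 0.10 from P1d (limma adjusted p = 0.00193). P7d and E18.5d hearts differed by -0.13 on the log2 scale, with a 95% confidence interval of -0.34 to 0.08, which passed no threshold and turned to between 0.03 and 0.05 under 3 other scalings of the columns.

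*Mff* (ENSMUSG00000026150.14, chr1:82724890-82752394, plus strand) had 117, 104 and 108 FPKM at E18.5d, 132, 126 and 141 FPKM at P1d and 104, 107 and 104 FPKM at P7d. As for *Fis1*, the 3 P1d hearts were the highest of the 9 and the other stages overlapped. The mean of 110 ± 6.66 FPKM at E18.5d rose to 133 ± 7.36 FPKM at P1d (log2 change 0.28 ± 0.06, SE; limma adjusted p = 0.00569) and fell to 105 ± 2.02 FPKM at P7d (log2 change -0.34 ± 0.06 from P1d, limma adjusted p = 0.00225). The fall lost its call when the columns were scaled to an equal sum of protein-coding nuclear genes (log2 change -0.18, limma adjusted p = 0.0593). Between P7d and E18.5d the log2 change of *Mff* was -0.06, with an interval of -0.20 to 0.08, and 0.10 to 0.12 under the other scalings.

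To show the DNA next to the start sites of *Pink1*, *Fis1* and *Mff*, the 3 genes called both higher at P1d than at E18.5d and lower at P7d than at P1d, 200 bases before the start of each gene in GENCODE M21 are given 5′ to 3′ on the gene's strand, as RefSeq holds them for GRCm38.p6. *Opa1* is shown with them because it was the 1 gene of the 10 with a match to a searched motif, which stands in capitals.
Pink1, chr4:138326308-138326507, minus strand: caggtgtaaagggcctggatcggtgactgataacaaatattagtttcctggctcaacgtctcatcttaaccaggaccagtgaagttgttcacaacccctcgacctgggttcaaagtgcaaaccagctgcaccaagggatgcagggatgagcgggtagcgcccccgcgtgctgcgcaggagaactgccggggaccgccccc
Fis1, chr5:136953075-136953274, plus strand: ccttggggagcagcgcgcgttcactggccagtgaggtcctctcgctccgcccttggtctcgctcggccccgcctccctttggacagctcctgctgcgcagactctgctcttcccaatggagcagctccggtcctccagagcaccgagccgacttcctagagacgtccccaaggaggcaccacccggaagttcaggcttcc
Mff, chr1:82724690-82724889, plus strand: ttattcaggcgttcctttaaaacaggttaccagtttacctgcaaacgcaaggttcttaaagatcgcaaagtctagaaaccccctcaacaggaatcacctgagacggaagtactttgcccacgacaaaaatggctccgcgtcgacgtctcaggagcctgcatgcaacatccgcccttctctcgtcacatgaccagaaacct
Opa1, chr16:29579134-29579333, plus strand: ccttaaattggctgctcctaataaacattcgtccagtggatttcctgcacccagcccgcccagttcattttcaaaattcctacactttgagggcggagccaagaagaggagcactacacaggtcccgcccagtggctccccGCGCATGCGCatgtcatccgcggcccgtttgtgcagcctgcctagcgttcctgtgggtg

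The C and G content of these runs was 57.5% for *Pink1*, 66.0% for *Fis1*, 49.0% for *Mff* and 57% for *Opa1*, with 10, 14, 11 and 11 CpG dinucleotides. Over all promoter windows the median was 53.0% and 5 CpG. The windows, 250 bases before to 50 bases after each RefSeq start, were searched on both strands for the element of the estrogen-related receptors (TNAAGGTCA, where N is any base) and for the site of NRF1 (GCGCATGCG), factors known for nuclear genes of mitochondria. All 10 genes had a window, 15 windows in all. None of the 10 held the first motif, which is in 1.43% of 27025 genes with a window, and *Opa1* held the second, which is in 1.95% of them. The match in *Opa1* begins 59 bases before the start, and the same letters match on the other strand 1 base farther on. A match is a description of the sequence, and binding was not measured.

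The outer membrane fusion gene *Mfn2* (ENSMUSG00000029020.13, chr4:147873599-147904704, minus strand) had the highest mean of the 10 genes at E18.5d and P7d. It was at 132, 129 and 122 FPKM at E18.5d, 159, 140 and 150 FPKM at P1d and 186, 199 and 184 FPKM at P7d. No 2 stages overlapped. The mean rose from 128 ± 5.41 to 150 ± 9.59 and 190 ± 7.97 FPKM (SD, n = 3 each). The log2 change was 0.57 ± 0.06 from E18.5d to P7d (SE; limma adjusted p = 0.000111) and 0.34 ± 0.06 from P1d to P7d (limma adjusted p = 0.00239). The first step, from E18.5d to P1d, was 0.22 ± 0.06 (limma adjusted p = 0.0174). Its call was lost without E18.5d replicate 3 (log2 change 0.19, limma adjusted p = 0.0613), without P1d replicate 1 (0.18, limma adjusted p = 0.06) and with *Xist* above 1 FPKM as a covariate (0.23, limma adjusted p = 0.0707).

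*Mfn1* (ENSMUSG00000027668.13, chr3:32529465-32579239, plus strand), the other mitofusin, was at 86.2, 86.4 and 80.3 FPKM at E18.5d, 107, 72.1 and 75.9 FPKM at P1d and 126, 98.1 and 100 FPKM at P7d. Replicate 1 was the highest heart at both P1d and P7d, and all P7d hearts stood above the E18.5d hearts. The means were 84.3 ± 3.48, 84.9 ± 19.0 and 108 ± 15.8 FPKM (SD, n = 3 each). The log2 change from E18.5d to P7d was 0.35 ± 0.15 (SE; limma adjusted p = 0.073), and that from P1d to P7d was 0.36 ± 0.15 (limma adjusted p = 0.0718), so neither was called. Both were called without P1d replicate 1 (limma adjusted p = 0.0167 and 0.0058), and both under the 3 other scalings. The change from E18.5d was also called when P1d was left out of the fit (limma adjusted p = 0.0198). The mean at P1d differed from that at E18.5d by -0.01 on the log2 scale, with an interval of -0.34 to 0.32.

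The inner membrane genes were called in none of the 3 comparisons with FPKM as deposited. *Opa1* (ENSMUSG00000038084.16, chr16:29579334-29654884, plus strand) was at 50.5, 47.5 and 47.7 FPKM at E18.5d, 55.2, 45.7 and 58.4 FPKM at P1d and 54.3, 51.3 and 54.7 FPKM at P7d. The P7d hearts were all above the E18.5d hearts by a narrow margin, and the P1d hearts spanned both. From E18.5d to P7d the mean went from 48.6 ± 1.68 to 53.4 ± 1.87 FPKM (SD, n = 3), a log2 change of 0.13 with an interval of -0.06 to 0.33 (limma adjusted p = 0.219). Under the 3 other scalings this change was 0.28 to 0.31 and was called. From E18.5d to P1d the log2 change was 0.12 (limma adjusted p = 0.281), and it became 0.22 and was called without P1d replicate 2 (limma adjusted p = 0.0165). That heart had the largest FPKM sum and the largest sum of liver markers. Under the 3 other scalings the change was not called, and the reason for the low value of that heart was not tested. *Oma1* (ENSMUSG00000035069.3, chr4:103313812-103371868, plus strand) had 8.72, 9 and 8.83 FPKM at E18.5d, 7.94, 9.56 and 9.10 FPKM at P1d and 8.20, 8.74 and 7.92 FPKM at P7d. These ranges overlap between all stages. The means were 8.85 ± 0.141, 8.87 ± 0.835 and 8.29 ± 0.417 FPKM (SD, n = 3 each), and the interval of the log2 change from E18.5d to P7d was -0.26 to 0.09.

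*Dnm1l* (ENSMUSG00000022789.14, chr16:16312230-16358959, minus strand), the gene of the fission GTPase, was lower after birth, while 2 of the genes for its receptors were higher at P1d. Its level was 30.7, 31.1 and 33.0 FPKM at E18.5d, 22.9, 18.4 and 25.9 FPKM at P1d and 23, 24.7 and 25.4 FPKM at P7d. All 6 postnatal hearts were below the 3 E18.5d hearts, and P1d and P7d overlapped. The mean fell from 31.6 ± 1.22 to 22.4 ± 3.76 FPKM at P1d (SD, n = 3), a log2 change of -0.49 ± 0.11 (SE; limma adjusted p = 0.00459), and was 24.4 ± 1.24 FPKM at P7d. The change from E18.5d to P7d was -0.36 ± 0.11 (limma adjusted p = 0.0181). That call depended on the scale of the columns, since the log2 change was -0.19 to -0.21 under the 3 other scalings and passed in none of them (limma adjusted p from 0.168 to 0.22). It was also lost without E18.5d replicate 3 (limma adjusted p = 0.0589) and without P7d replicate 1 (limma adjusted p = 0.0621). An antisense gene, Gm49521, covers 4.67% of the exon bases of *Dnm1l*, and as the libraries did not mark strand their reads cannot be told apart there.

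Of the paralogous adaptors, *Mief1* was called lower and *Mief2* higher at P7d than at E18.5d with FPKM as deposited. *Mief1* (ENSMUSG00000022412.12, chr15:80234018-80253371, plus strand) was at 11.9, 12.2 and 11.3 FPKM at E18.5d, 12.2, 12.4 and 12.3 FPKM at P1d and 9.86, 9.77 and 9.82 FPKM at P7d. The 3 P7d hearts were the lowest of the 9. The mean at P7d, 9.82 ± 0.0451 FPKM, was lower than the 12.3 ± 0.0651 FPKM of P1d (log2 change -0.30 ± 0.06, SE; limma adjusted p = 0.00235) and than the 11.8 ± 0.442 FPKM of E18.5d (-0.24 ± 0.06, limma adjusted p = 0.00579; SD, n = 3 each). Under the 3 other scalings the change from E18.5d was -0.08 to -0.09 and was not called (limma adjusted p from 0.179 to 0.275). The change from P1d was kept under 2 of them and lost with an equal sum of protein-coding nuclear genes (log2 change -0.16, limma adjusted p = 0.0568).

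*Mief2* (ENSMUSG00000018599.5, chr11:60728398-60732951, plus strand) was the gene with the lowest level, at 5.79, 5.70 and 6.51 FPKM at E18.5d, 7.36, 6.01 and 7.57 FPKM at P1d and 8.51, 9.01 and 6.85 FPKM at P7d. The P7d hearts were above the E18.5d hearts, and the P1d hearts overlapped both. The mean rose from 6.00 ± 0.444 to 8.12 ± 1.13 FPKM (SD, n = 3), a log2 change of 0.38 ± 0.11 from E18.5d to P7d (SE; limma adjusted p = 0.0205). The call was kept under the 3 other scalings and lost without either of E18.5d replicates 1 and 2 or of P7d replicates 1 and 2 (limma adjusted p from 0.0603 to 0.0798). In the steps by way of P1d, the intervals of the log2 change were -0.07 to 0.44 and -0.06 to 0.45.

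**Figure D2:**
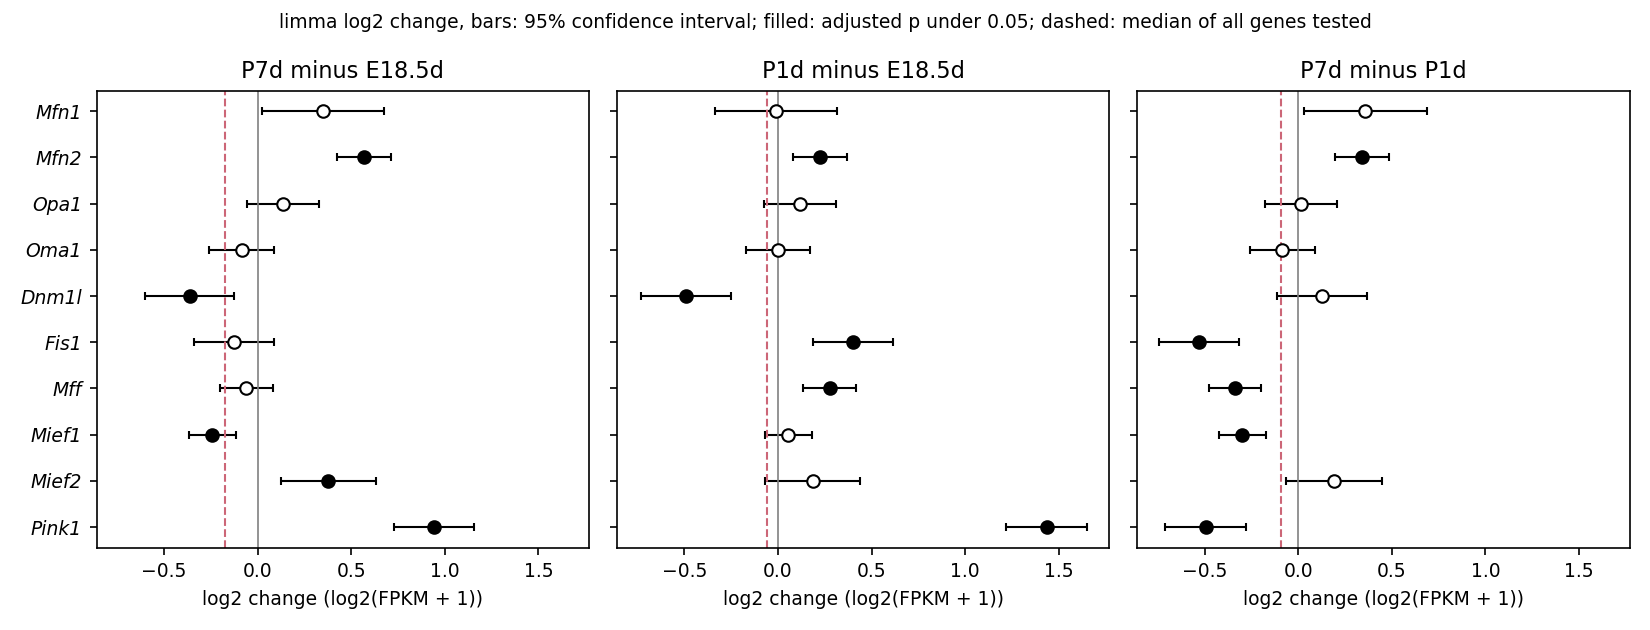
Log2 change of each gene (points, x axis, log2(FPKM + 1) scale) with its 95% confidence interval in the 3 comparisons of stages from limma, filled where the adjusted p was under 0.05, with the median of all 13618 genes tested as a dashed line. *Pink1* stands apart at P1d against E18.5d with 1.44, and at P7d against P1d the 4 genes called lower lie between -0.53 and -0.30.

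Ratios between genes of the same heart do not depend on the scale of its column, so 3 ratios were compared over the 3 stages with exact permutation tests of the F statistic, with p-values adjusted over the 3. With 3 hearts per stage the smallest p such a test can give is 0.0036, and a comparison of 2 stages cannot go below 0.1. The ratio of *Mief1* to *Mief2* was 1.74 to 2.14 in the E18.5d hearts, 1.63 to 2.06 in the P1d hearts and 1.08 to 1.43 in the P7d hearts. All P7d hearts were under the other 6, and the exact permutation p over the stages was 0.0107 (adjusted p = 0.0268). The mean log2 ratio was 0.98 ± 0.157 at E18.5d and 0.28 ± 0.210 at P7d (SD, n = 3), a difference of -0.70.

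The summed FPKM of the fusion genes *Mfn1*, *Mfn2* and *Opa1*, divided by that of the fission genes *Dnm1l*, *Fis1*, *Mff*, *Mief1* and *Mief2*, was 0.938 to 0.981 at E18.5d, 0.758 to 1.02 at P1d and 1.34 to 1.48 at P7d. Every P7d heart was above the other 6, while E18.5d and P1d overlapped. Genes with high levels weigh most in these sums. At E18.5d *Fis1* and *Mff* had means of 114 and 110 FPKM, beside 31.6 for *Dnm1l*, 11.8 for *Mief1* and 6.00 for *Mief2*. *Mfn2*, *Mfn1* and *Opa1* had 128, 84.3 and 48.6 FPKM. From E18.5d over P1d to P7d, the mean log2 ratio was -0.07 ± 0.0338, -0.19 ± 0.213 and 0.48 ± 0.0742 (SD, n = 3 each), with an exact permutation p of 0.0179 over the stages (adjusted p = 0.0268). The ratio of *Mfn2* to *Mfn1* was 1.5 to 1.53 at E18.5d, 1.49 to 1.98 at P1d and 1.47 to 2.03 at P7d, and the stages overlapped (exact permutation p = 0.354 over the stages, the same after adjustment). The lowest ratios at P1d and P7d were those of replicate 1.

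**Figure D3:**
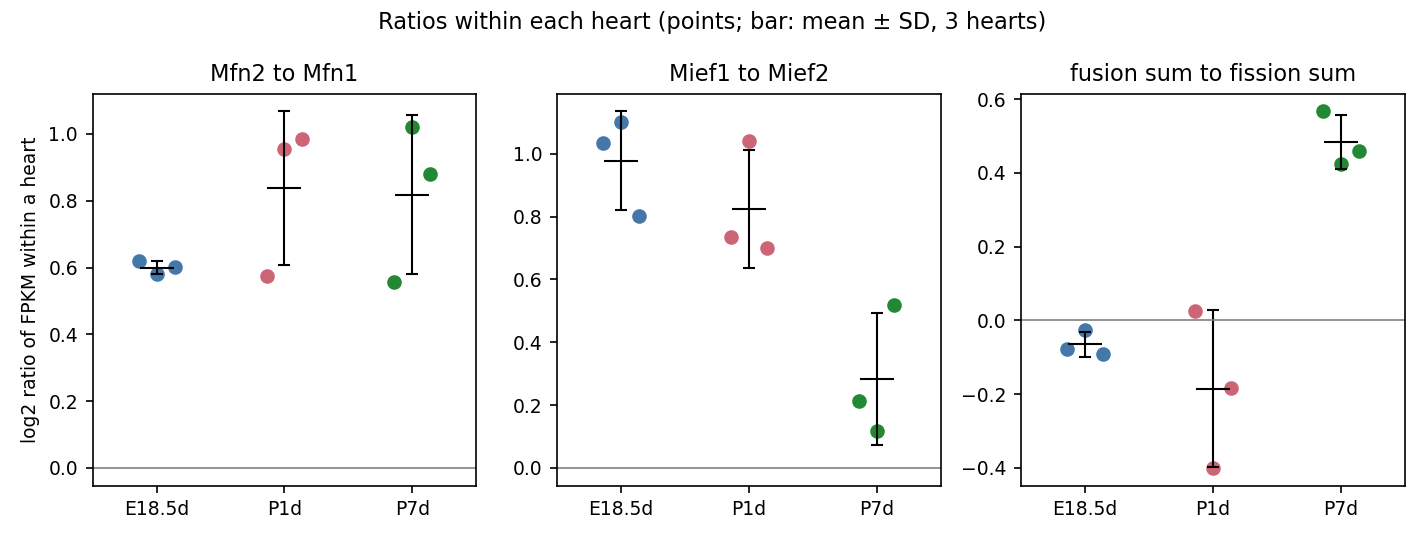
Log2 ratio of FPKM within a heart (y axis) for *Mfn2* to *Mfn1*, *Mief1* to *Mief2* and the fusion sum to the fission sum, by stage (x axis), as points for hearts with the mean and SD of 3 hearts. The P7d hearts lie under all others for *Mief1* to *Mief2* and above all others for the sums.

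The order of the levels changed at each stage. At E18.5d it ran from *Mfn2* over *Fis1* and *Mff*, *Mfn1*, *Opa1*, *Pink1* and *Dnm1l* to *Mief1*, *Oma1* and *Mief2*, where the hearts of the neighbours *Fis1* and *Mff* and those of *Pink1* and *Dnm1l* overlapped. At P1d *Fis1*, *Mfn2* and *Mff* led with overlapping hearts, and *Pink1* had moved up beside *Mfn1*, overlapping it. At P7d *Mfn2* stood alone at the top, followed by *Mfn1*, *Mff* and *Fis1* with overlapping hearts, then *Pink1*, *Opa1*, *Dnm1l*, *Mief1*, and *Oma1* and *Mief2*, which overlapped.

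The 4 hearts with *Xist* against their label were left out in a further fit, which kept 1 E18.5d heart, 3 P1d hearts and 1 P7d heart and took the lone hearts to vary like those of P1d. Every log2 change that had been called kept its direction. The log2 change of *Pink1* was 1.40 at P1d against E18.5d, 1.02 at P7d against E18.5d and -0.38 at P7d against P1d. From E18.5d to P1d the other values were 0.38 for *Fis1*, 0.35 for *Mff*, 0.21 for *Mfn2* and -0.47 for *Dnm1l*. From E18.5d to P7d they were 0.52 for *Mfn2*, 0.51 for *Mief2*, -0.42 for *Dnm1l* and -0.28 for *Mief1*. From P1d to P7d they were 0.31 for *Mfn2*, -0.54 for *Fis1*, -0.36 for *Mff* and -0.29 for *Mief1*. None of these passed, with limma adjusted p-values from 0.124 to 0.357. With *Xist* above 1 FPKM as a covariate in the fit of 9 hearts, all calls were kept but that of *Mfn2* at P1d.

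**Figure D4:**
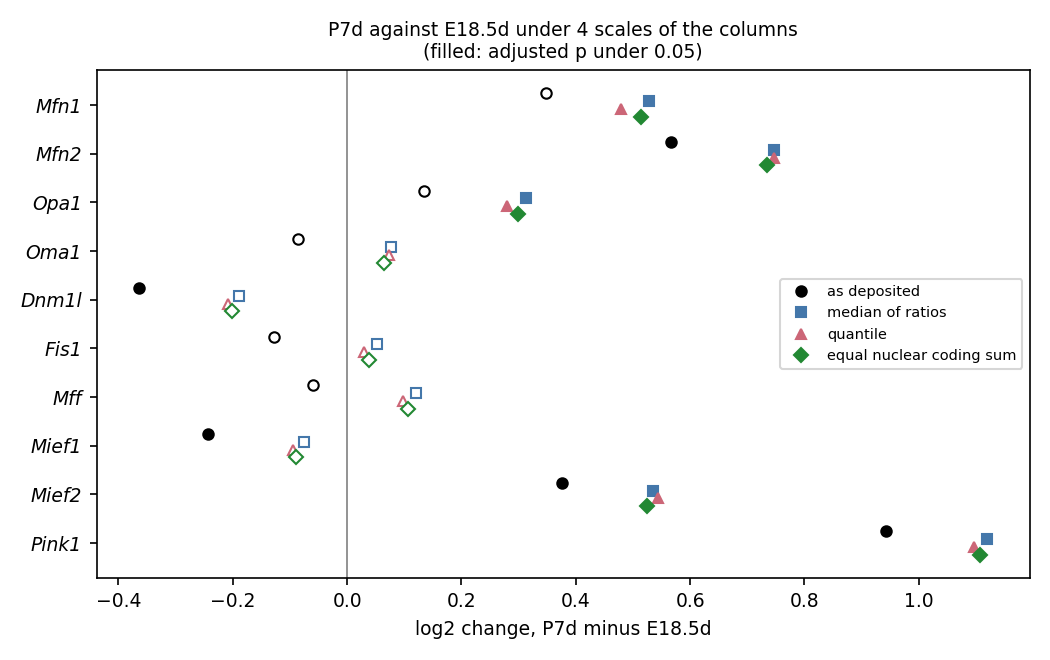
Log2 change from E18.5d to P7d (x axis) of the 10 genes with FPKM as deposited and under 3 other scalings of the columns (symbols), filled where the limma adjusted p was under 0.05. The other scalings move all 10 genes up, so that *Mfn1* and *Opa1* are called, *Dnm1l* and *Mief1* are not, and *Oma1*, *Fis1* and *Mff* cross 0 without a call.

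The scale of the columns bears on these genes because the FPKM columns summed to 1347981 to 1794160, and the share of protein-coding nuclear genes in that sum was 36.5% to 37.3% at E18.5d and 29.6% to 34.5% at P1d and P7d. Median-of-ratios, quantile and equal-sum scaling brought the median log2 change of all genes from E18.5d to P7d from -0.17 to between -0.03 and -0.02. Of the 10 genes, 5 were then called between P7d and E18.5d, all of them higher at P7d (*Pink1*, *Mfn2*, *Mief2*, *Mfn1* and *Opa1*). Of all 13618 genes tested, 2752 to 2905 were then called higher and 2848 to 2937 lower. At P1d against E18.5d the calls stayed at 4 higher and 1 lower under all 3 scalings. Over all genes tested, 2628 to 3206 were higher and 3066 to 3500 lower in that comparison.

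Other genes of mitochondrial dynamics and quality were counted from 6 lists of 62 genes, of which 58 were tested. *Pld6*, *Gdap1*, *Gdap1l1* and *Calcoco2* were under a mean of 1 FPKM. At P1d against E18.5d, 11 were higher and 11 lower, 37.9% in all. At P7d against E18.5d, 8 were higher and 19 lower (46.6%), and at P7d against P1d 6 were higher and 16 lower (37.9%). These shares are below or near the 46.0%, 49.4% and 44.2% of all genes. The split from E18.5d to P7d depended on the scale, with 18 or 19 higher and 9 or 10 lower under the 3 other scalings. So did that from P1d to P7d, with 12 higher and 7 lower under median of ratios, 10 and 10 under quantile and 14 and 5 under equal-sum scaling. Of all 13618 genes, the 3 scalings gave 2752 to 2905 higher and 2848 to 2937 lower from E18.5d to P7d. From P1d to P7d they gave 2879 to 3293 higher and 2234 to 2787 lower. The counts of each list below are of FPKM as deposited. Without the 4 hearts with *Xist*, the median log2 change of the 58 genes was -0.06 at P1d and -0.07 at P7d against E18.5d, and -0.06 at P7d against P1d. With 1 heart left in each of 2 stages, that fit cannot show which of these calls hold.

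Among the mitophagy genes, *Sqstm1* and *Tax1bp1* had their highest mean at P1d, as *Pink1* did. *Sqstm1*, encoding the autophagy receptor p62, was at 91.1, 89.9 and 84.0 FPKM at E18.5d, 165, 227 and 139 FPKM at P1d and 111, 107 and 115 FPKM at P7d. The P1d hearts were the highest, with a log2 change of 0.97 ± 0.14 from E18.5d (limma adjusted p = 0.00059) and of -0.64 ± 0.14 to P7d (limma adjusted p = 0.00622). *Tax1bp1*, another autophagy receptor, was 0.29 higher on the log2 scale at P1d than at E18.5d (limma adjusted p = 0.0049) and lower at P7d than at P1d (-0.44, limma adjusted p = 0.000614). *Bnip3*, a mitophagy receptor of the outer membrane, took another course. It was at 81.8, 72.6 and 65.8 FPKM at E18.5d, 54.0, 70.3 and 38.4 FPKM at P1d and 29.3, 25 and 24.7 FPKM at P7d, and its log2 change of -1.44 ± 0.18 from E18.5d to P7d (limma adjusted p = 0.000224) was the largest fall in the 6 lists. *Optn*, encoding the receptor optineurin, was higher at P7d by 0.49 than at E18.5d (limma adjusted p = 0.000872) and by 0.59 than at P1d (limma adjusted p = 0.000397). Of the 15 mitophagy genes tested, 3 were higher and 1 lower at P1d against E18.5d, 1 higher and 4 lower at P7d against E18.5d, and 1 higher and 6 lower at P7d against P1d. Under each of the 3 other scalings 3 were higher and 2 lower at P7d against E18.5d, and 1 was higher and 3 or 4 lower at P7d against P1d.

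The fission accessory gene *Mtfp1*, encoding an inner membrane protein that promotes division, was at 18.3, 20.2 and 19.0 FPKM at E18.5d, 15.8, 14.3 and 15.6 FPKM at P1d and 30.8, 32.9 and 28.2 FPKM at P7d. The stages did not overlap, with the lowest level at P1d, opposite to *Fis1* and *Mff*. Its log2 change was -0.31 ± 0.07 (SE) from E18.5d to P1d (limma adjusted p = 0.00701), 0.96 ± 0.07 from P1d to P7d (limma adjusted p = 2.2e-05) and 0.65 ± 0.07 from E18.5d to P7d (limma adjusted p = 0.00011). *Mtfr2* was lower at P1d by -0.92 on the log2 scale from a mean of 2.09 FPKM (limma adjusted p = 0.000465). *Mtfr1l* (0.33) and *Dnm2* (0.26), the gene of dynamin 2, were higher at P1d than at E18.5d (limma adjusted p = 0.000655 and 0.00783). Of the 7 genes of this list tested, 2 were higher and 2 lower at P1d against E18.5d, 2 higher and 1 lower at P7d against E18.5d, and 1 higher (*Mtfp1*) and 1 lower at P7d against P1d. Under each of the 3 other scalings 4 were higher and 1 lower at P7d against E18.5d, and 2 were called at P7d against P1d, each higher.

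In the list of inner membrane fusion, OPA1 processing and proteases, 13 genes were tested. *Yme1l1*, the protease that cleaves OPA1 beside OMA1, had means of 25.7, 23.8 and 18.8 FPKM from E18.5d to P7d and was lower at P7d than at E18.5d (log2 change -0.43, limma adjusted p = 0.000407) and than at P1d (-0.33, limma adjusted p = 0.00231; not called under the equal-sum scaling). *Clpx*, the unfoldase of the matrix protease CLPXP, had a maximum at P1d with means of 17.9, 27.3 and 21.7 FPKM, a log2 change of 0.58 from E18.5d to P1d (limma adjusted p = 0.00041). In all, 3 genes were called at P1d against E18.5d, each higher, 1 was higher and 3 lower at P7d against E18.5d, and 4 were called at P7d against P1d, each lower. Under the 3 other scalings 5 were higher and 1 lower at P7d against E18.5d, and 1 or 2 were higher and 1 or 2 lower at P7d against P1d. In the cristae list, which holds the MICOS complex at the cristae junctions, *Chchd6* was lower at P1d (-0.70, limma adjusted p = 0.000175) and at P7d (-0.75, limma adjusted p = 0.000102) than at E18.5d, from 15.3 to 9.08 and 8.67 FPKM. *Samm50*, of the outer membrane assembly machinery, was higher at both stages (0.21 and 0.24, limma adjusted p = 0.0125 and 0.00538). Of these 10 genes, 1 was higher and 4 lower at P1d, and 2 higher and 6 lower at P7d, against E18.5d, and 1 was higher and 2 lower at P7d against P1d. Of the 6 lower at P7d than at E18.5d, *Immt*, *Micos10* and *Dnajc11* were called under none of the 3 other scalings, and at P7d against P1d those scalings turned the split to 2 to 5 higher and at most 1 lower.

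Of the 7 outer membrane regulators tested, 2 were higher and 2 lower at P1d against E18.5d, 3 were called at P7d against E18.5d, each lower, and 1 was higher and 3 lower at P7d against P1d. Under the 3 other scalings 2 or 3 were higher and as many lower at P7d against E18.5d, and 1 was higher and 1 to 3 lower at P7d against P1d. *Miga2*, which acts on mitofusin-dependent fusion through lipids, had means of 24.3, 16.7 and 26.0 FPKM, lower at P1d than at E18.5d (-0.51, limma adjusted p = 0.000834) and higher at P7d than at P1d (0.61, limma adjusted p = 0.000393). *Mtch2* fell from 96.7 to 80.2 and 66.5 FPKM, a log2 change of -0.54 from E18.5d to P7d (limma adjusted p = 8.99e-05). *Marchf5*, a ubiquitin ligase of mitofusins and DRP1, was lower at P7d than at P1d (-0.44, limma adjusted p = 0.000546). Of the 6 transport genes, *Trak1*, an adaptor that links mitochondria to kinesin, was at 58.6, 60.1 and 59.2 FPKM at E18.5d, 64.6, 55.7 and 64 FPKM at P1d and 92.2, 98.9 and 103 FPKM at P7d. The P7d hearts stood above the other 6, which overlapped, and the log2 change from E18.5d was 0.71 ± 0.07 (SE; limma adjusted p = 4.46e-05). *Kif5b*, the kinesin heavy chain, was lower at P1d than at E18.5d (-0.51, limma adjusted p = 0.00567). In the transport list 2 genes were called at P1d against E18.5d, each lower, 2 were higher and 2 lower at P7d against E18.5d, and 2 were called at P7d against P1d, each higher. Both lower calls at P7d against E18.5d, of *Kif5b* and *Armcx3*, were lost under all 3 other scalings.

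**Figure D5:**
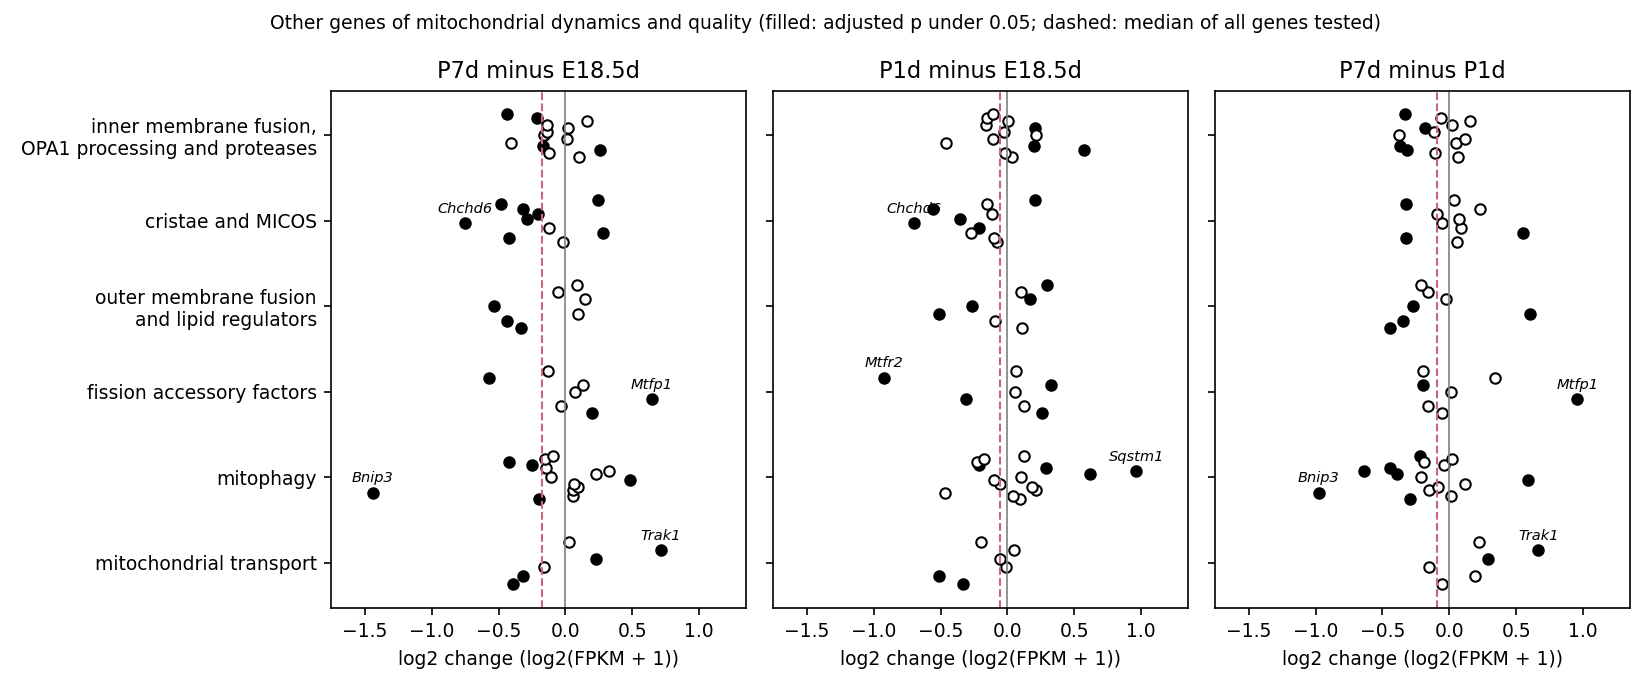
Log2 change (x axis, log2(FPKM + 1) scale) of the 58 other genes tested, in their 6 lists (y axis), for the 3 comparisons of stages from limma, filled where the adjusted p was under 0.05, with the median of all genes tested dashed. At P7d against E18.5d *Bnip3* lies lowest at -1.44 and *Trak1* and *Mtfp1* highest at 0.71 and 0.65, and at P1d against E18.5d *Mtfr2* lies lowest and *Sqstm1* highest.

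The genes whose pattern was most like that of *Pink1* over the 9 hearts, by Pearson's r of log2(FPKM + 1), were *Txnip* (r = 0.996), *Pbxip1* (r = 0.996), *Pdpr* (r = 0.992), *Kyat1* (r = 0.992) and *Tecpr1* (r = 0.991). These values describe the 9 hearts, which share 3 stages, and carry no test. *Txnip* had means of 127, 796 and 383 FPKM and *Pdpr* 17.6, 31.5 and 26.3 FPKM at E18.5d, P1d and P7d, beside 33.1, 91.5 and 64.5 FPKM for *Pink1*.

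Few stretches of the 10 genes were shared with other genes. Of the stretches of 50 bases in the longest GENCODE M21 transcript of each gene, none of *Mfn2*, *Opa1*, *Oma1*, *Fis1*, *Mff* and *Mief2* were found in a transcript of another gene, and 0.07% of those of *Mfn1*. *Mfn1* and *Mfn2* shared no such stretch, nor did *Mief1* and *Mief2*. The share was 6.2% for *Dnm1l*, mostly with Gm49521, 3.22% for *Mief1* with the overlapping gene AC140267.1 and 2.62% for *Pink1* with Gm27646, a miRNA gene within it that was at 0 FPKM.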

How the data were processed

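RNA-seq of 9 mouse hearts was used, 3 each at E18.5d, P1d and P7d, grouped by the stage in their labels. The authors deposited 1 table of FPKM for 48820 genes, each heart in its own column. The submitters' processing notes name STAR and the builds GRCm38 and mm10, and the counting tool and annotation were not given in the sources used here. The sources name a NEBNext Ultra RNA kit, which does not mark strand. Identifiers were matched without version to GENCODE M21 of GRCm38 (48144 of 48820).

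A pseudocount of 1 was added before the log2. Genes under a mean of 1 FPKM over the hearts were left out, and limma 3.58.1 (R 4.3.3; eBayes with trend, every stage in the same fit, no covariate) was run on the other 13618, adjusted by Benjamini-Hochberg and called under 0.05. Exact permutation tests of ratios were run with Python 3.11.15 and numpy 2.4.6, and plots with matplotlib 3.10.9. Tried as well were a filter at 5 FPKM or none, a pseudocount of 0.1, 3 other scalings of the columns, no trend, only the stages compared, a replicate block, *Xist* as covariate, leaving out the 4 hearts with *Xist*, and leaving out each heart. The fit was tested on simulated data. Depth came from the spacing of the low FPKM values, and the counting error covers counting only.

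The members, the lists and the tests were chosen with earlier results of these data known. Named were all 10 genes and some genes of the lists. These were taken, per list and comparison, from the up to 3 genes with the largest change in each direction among those past the threshold. Not all genes so chosen were named, and the rest are only counted in their lists. *Immt* and the genes under a mean of 1 FPKM were named outside this rule. Genes under other names or dates in the table (*Marchf5*, *Micos10*, *Micos13*) were found by identifier. The labels call the replicates biological, and p-values measure the spread between these hearts. Nothing in the labels says which hearts shared a litter.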

Additional observations from a re-analysis of the deposited data

How the results depend on the processing

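Of 600 values of single genes under other settings, 528 kept their direction and side of the threshold, 31 lost the call, 15 gained it and 26 changed sign, none of these 26 called in the report. Without the 4 hearts with *Xist*, the number of the 10 genes called was 0 at P7d against E18.5d (2 at an unadjusted p under 0.05 in limma), 1 at P1d against E18.5d (2 unadjusted) and 0 at P7d against P1d (3 unadjusted), and that of the 58 other genes was 0, 0 and 1 (7, 12 and 12 unadjusted). This fit has 1 heart in each of 2 stages. The log2 ratio of *Mfn2* to *Mfn1* then differed by -0.023 between P7d and E18.5d, against 0.22 with all hearts, and that of *Mief1* to *Mief2* by -0.89, against -0.70. Leaving out each heart gave 3 to 6 genes of the 10 at P7d against E18.5d, the 3 without P7d replicate 1. The replicate numbers did not pair the hearts (correlations of deviations of -0.05 to 0.11, 1 of 9 pairs above 0.1), and with a replicate block 6, 5 and 6 of the 10 genes were called in the same order of comparisons, with *Mfn1* gained at P7d against both other stages (limma adjusted p = 0.0231 and 0.0229), and 27, 22 and 22 of the 58. Under median-of-ratios, quantile and equal-sum scaling, the log2 change at P7d against E18.5d became 0.077, 0.073 and 0.065 for *Oma1*, 0.052, 0.030 and 0.038 for *Fis1* and 0.12, 0.097 and 0.11 for *Mff*. At P1d against E18.5d it became 0.058, 0.0087 and 0.0027 for *Mfn1* and 0.062, 0.082 and 0.012 for *Oma1*, and at P7d against P1d 0.015 (median of ratios) and 0.053 (equal sum) for *Oma1*. Leaving out each heart, the change at P1d against E18.5d ran from -0.186 to 0.094 for *Mfn1* and from -0.052 to 0.068 for *Oma1*, and at P7d against P1d from -0.088 to 0.086 for *Opa1* and from -0.0017 to 0.233 for *Dnm1l*. The cause was not tested. With 3 hearts per stage, a change that was not called is not shown to be absent. Its interval gives the sizes that these hearts leave possible.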
